A study of Mus musculus with 4 samples.

Results

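The angiopoietin and VEGF family was examined in cardiomyocytes of mice after sham surgery or after transverse aortic constriction (TAC), a narrowing of the aorta that loads the left ventricle with pressure. The family held 10 genes of the 22322 in the files. The 6 ligands were Angpt1, Angpt2, Vegfa, Vegfb, Vegfc and Vegfd, and the 4 receptors were Tek, Kdr, Flt1 and Nrp1. These genes were chosen by the measured level of Angpt1, which was lower in the TAC libraries of this data set, so their differences between TAC and sham are given as a description, without a p-value. Libraries were made from 2 sham and 2 TAC preparations, each from part of the muscle cells of 1 heart. Per the methods of the study the mice were male, had surgery at 2 months of age, and went through echocardiography 14 weeks after surgery. The same methods also call the mice 14 weeks old at cell isolation, so the age at sampling is not settled. The sources used here do not give the strain, and the labels name no genetic change in either group. Cells were released by Langendorff perfusion, in which enzyme solution is pumped through the coronary vessels, and total RNA was extracted from them.

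Cardiac muscle is fed by a capillary net in which nearly every myocyte touches an endothelial cell, and the family carries signals between these cell types. Vegfa is secreted by myocytes and other cells when oxygen is short, and binds Kdr and Flt1 on endothelial cells to drive vessel growth and permeability. Angpt1 is made by mural and muscle cells and activates Tek on the endothelium, which keeps vessels quiet and tight, and Angpt2, stored by endothelial cells, mostly opposes it. Vegfc and Vegfd act chiefly on lymphatic endothelium. Vegfb is abundant in heart muscle and binds Flt1. Nrp1 is a co-receptor that presents Vegfa to Kdr and also binds semaphorins.

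The expected counts (estimated counts per gene) summed to between 24237777 and 32118323 per library. Genes of the mitochondrial genome took 47.4% of the count in TAC 1 and 39.8% to 40.8% in the other libraries, and the TAC libraries differed from each other by a chi-square of 31.3 per degree of freedom against 9.19 for the sham libraries. TAC 1 thus stood apart, and results are also given without it below. Counts were tested with edgeR's quasi-likelihood test, and 625 of 12499 genes tested were called at a Benjamini-Hochberg adjusted p under 0.05, 322 higher and 303 lower in TAC. Of all tested genes, 27.5% had an unadjusted p under 0.05, the background for the unadjusted counts given below. With scaling by total counts, which the study names, the split was 105 higher and 426 lower, and the median log2 fold change of all genes moved from -0.01 to -0.20. Levels below are CPM, counts brought to a common library size with TMM factors that align the bulk of genes between libraries, or FPKM, the deposited length-corrected value. Cardiomyocyte markers dominated, with summed levels of 78370 and 86600 CPM in sham and 83630 and 80150 CPM in TAC. None of the 12 was called by edgeR, 4 had an unadjusted p under 0.05 and 4 were called by DESeq2. Over all genes, DESeq2 called 887. The 15 endothelial markers summed to between 278.8 and 537.0 CPM, so the preparations also held endothelial RNA.

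All 10 genes passed the filter on low counts. On the per-length FPKM scale Vegfb and Vegfa were by far the most abundant. In sham, mean FPKM was 132.0 for Vegfb and 78.2 for Vegfa, followed by 22.3 for Kdr and 22.0 for Nrp1, whose values in the libraries overlapped. Angpt1 at 9.91 FPKM and Flt1 at 9.84 FPKM also overlapped, and Tek came next at 6.54 FPKM. Vegfc at 1.26 FPKM stood above Vegfd at 0.625 and Angpt2 at 0.480 FPKM, and the values of these last ones overlapped. The order in TAC was the same for the first 4 genes, with 139.0 FPKM for Vegfb and 110.3 for Vegfa. Angpt1 at 4.07 FPKM then stood below Flt1 at 6.38 FPKM and overlapped with Tek at 3.42 FPKM. Vegfd at 0.950 and Vegfc at 0.910 FPKM overlapped, and Angpt2 was last at 0.185 FPKM.

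**Figure D1:**
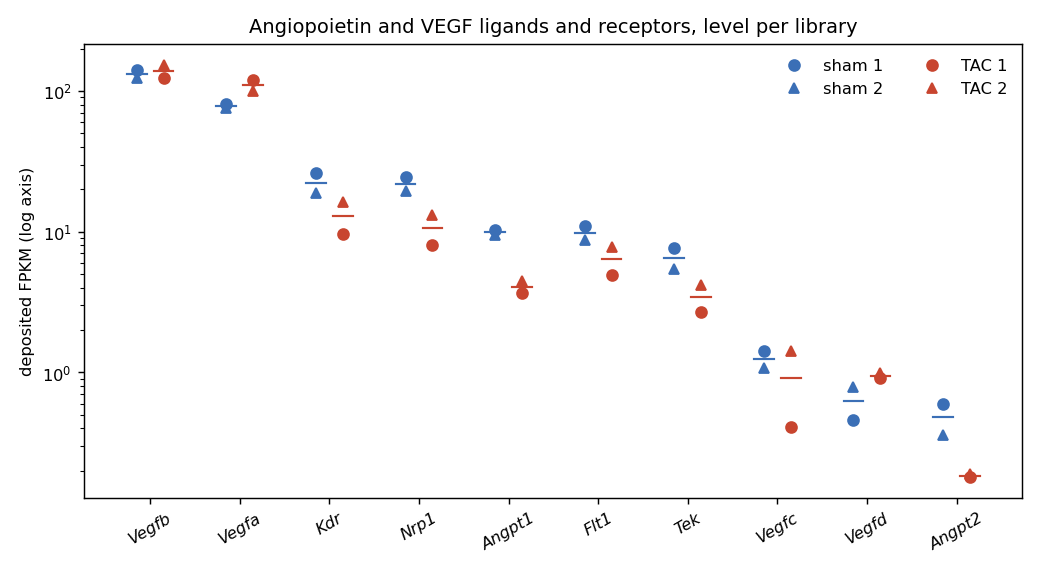
Deposited FPKM of each of the 10 genes on a log axis in the 2 sham (blue) and 2 TAC (red) libraries, with 1 point per library and a line at each group mean. The TAC points of Angpt1, at 3.68 and 4.46 FPKM, lie below the sham points at 9.55 and 10.3 FPKM, while those of Vegfa lie above sham.

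Angpt1, the ligand that activates Tek, was lower in both TAC libraries. Sham 1 held 39.9 CPM and sham 2 held 39.1 CPM, whereas TAC 1 held 18.0 CPM and TAC 2 held 18.9 CPM. The replicates lay close together in each group, and the groups were far apart. The log2 fold change was -1.10 ± 0.09 (SE, n = 2 per group), a level 2.14-fold lower in TAC, and the underlying counts were 1261, 1126, 503 and 461 in the same order. Within a group the replicates differed by 0.03 (sham) and 0.06 (TAC) on the log2 scale, the smallest gaps among the 10 genes. Leaving out 1 library at a time gave log2 fold changes between -1.13 and -1.07, and the log2 ratio of mean FPKM was -1.28. Angpt1 lies on the reverse strand at chr15:42424723-42676977 (GRCm38). Its exons overlap those of the antisense gene Gm17473, and since the use of strand in counting is not given, reads of both cannot be told apart.

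Angpt2, the context-dependent antagonist of Tek, was near the floor of detection. It was counted 62 times in sham 1 and 35 times in sham 2 (1.96 and 1.22 CPM), then 21 times in TAC 1 and 16 times in TAC 2 (0.753 and 0.654 CPM). Both TAC libraries lay below both sham libraries, yet the sham libraries also differed from each other. The log2 fold change was -1.17 ± 0.39 (SE), and it spanned -1.47 to -0.32 over the alternatives. The gene lies at chr8:18690263-18741562 on the reverse strand, inside the locus of Mcph1 on the other strand, with which it shares no exon sequence. The log2 ratio of Angpt2 to Angpt1 in FPKM was -4.10 and -4.73 in sham and -4.35 and -4.55 in TAC. This ratio of antagonist to agonist RNA overlapped between groups.

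Vegfa, the main growth factor for vessels, was higher in both TAC libraries. The sham libraries held 197.5 CPM (sham 1) and 188.4 CPM (sham 2), and the TAC libraries 358.0 CPM (TAC 1) and 261.3 CPM (TAC 2). The groups did not overlap, and TAC 1 stood well above TAC 2. The log2 fold change was 0.68 ± 0.14 (SE), or 1.61-fold, and it was 0.44 without TAC 1 and 0.89 without TAC 2. On the deposited FPKM scale the log2 ratio of group means was 0.50, from 80.6 and 75.8 FPKM in sham to 120.2 and 100.5 FPKM in TAC. Its share of the summed FPKM of the 10 genes was 26.7% and 28.7% in sham and 43.7% and 33.2% in TAC. These values sum over all isoforms of the gene. Vegfa lies at chr17:46016993-46032369 on the reverse strand.

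Vegfb, the ligand of Flt1 with the highest FPKM of the family, moved little. Sham 1 and sham 2 held 155.5 and 144.9 CPM, TAC 1 and TAC 2 held 174.1 and 184.9 CPM, and the log2 fold change was 0.26 ± 0.08 (SE). The groups were apart in CPM but overlapped in FPKM, where the sham libraries held 140.2 and 123.8 and the TAC libraries 124.2 and 153.8. The log2 ratio of mean FPKM was 0.07. Vegfb lies at chr19:6982473-6987651 on the reverse strand.

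The lymphatic ligands were rare. Vegfc was counted 101 and 73 times in sham and 32 and 77 times in TAC, so that its groups overlapped. Its log2 fold change of -0.43 ± 0.43 (SE) was carried by TAC 1 and turned to 0.13 without that library. Vegfd was counted 27 and 45 times in sham and 60 and 49 times in TAC. Its TAC libraries were both higher by a small margin, with a log2 fold change of 0.79 ± 0.36 (SE) that spanned 0.27 to 1.28 over the alternatives. Vegfc lies at chr8:54077606-54187096 and Vegfd at chrX:164373378-164402650, both on the forward strand.

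The receptors, which endothelial cells carry, were lower in TAC, opposite to Vegfa. Tek, the angiopoietin receptor, was at 31.1 CPM (sham 1), 23.5 CPM (sham 2), 13.6 CPM (TAC 1) and 18.3 CPM (TAC 2), a log2 fold change of -0.78 ± 0.18 (SE). Kdr, the principal signalling receptor of Vegfa, was at 140.3, 106.6, 66.1 and 95.5 CPM in that order, a log2 fold change of -0.61 ± 0.18 (SE). For both genes the sham libraries lay above the TAC libraries, sham 1 was the highest and TAC 1 the lowest. Flt1, a high-affinity receptor whose soluble form traps ligand, was at 67.1, 56.9, 38.5 and 52.3 CPM, a log2 fold change of -0.45 ± 0.15 (SE). Nrp1, the co-receptor, was at 79.8, 67.8, 33.1 and 46.9 CPM, a log2 fold change of -0.89 ± 0.16 (SE). The order sham 1, sham 2, TAC 2, TAC 1 held for all 4 receptors. Their size varied with the libraries: without TAC 1 the log2 fold changes were -0.58 for Tek, -0.37 for Kdr, -0.25 for Flt1 and -0.66 for Nrp1, and without sham 1 they were -0.56, -0.40, -0.33 and -0.76 in that order. Without TAC 2 they were -1.01, -0.90, -0.69 and -1.16, and without sham 2 -0.97, -0.80, -0.57 and -0.999. The receptor median thus shrank to -0.48 without either TAC 1 or sham 1. The median over the receptors was -0.70, beside -0.01 for all genes tested. Tek lies at chr4:94739289-94874976 and Nrp1 at chr8:128358604-128503363 on the forward strand, Kdr at chr5:75932827-75978458 and Flt1 at chr5:147561604-147726011 on the reverse strand.

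In CPM the groups did not overlap for 9 of the 10 genes, 6 lower and 3 higher in TAC, where 60.1% of all genes tested did not overlap, 30.3% lower and 29.8% higher. Of the 10 genes, 3 were called by edgeR (Angpt1 and Nrp1 lower, Vegfa higher), where 5.0% of all genes tested were called, 2.42% lower and 2.58% higher. Among the 13 alternatives, Angpt1 was called in 13, Nrp1 in 10 and Vegfa in 8. Since the choice of genes used this comparison, nothing is read from these counts.

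**Figure D2:**
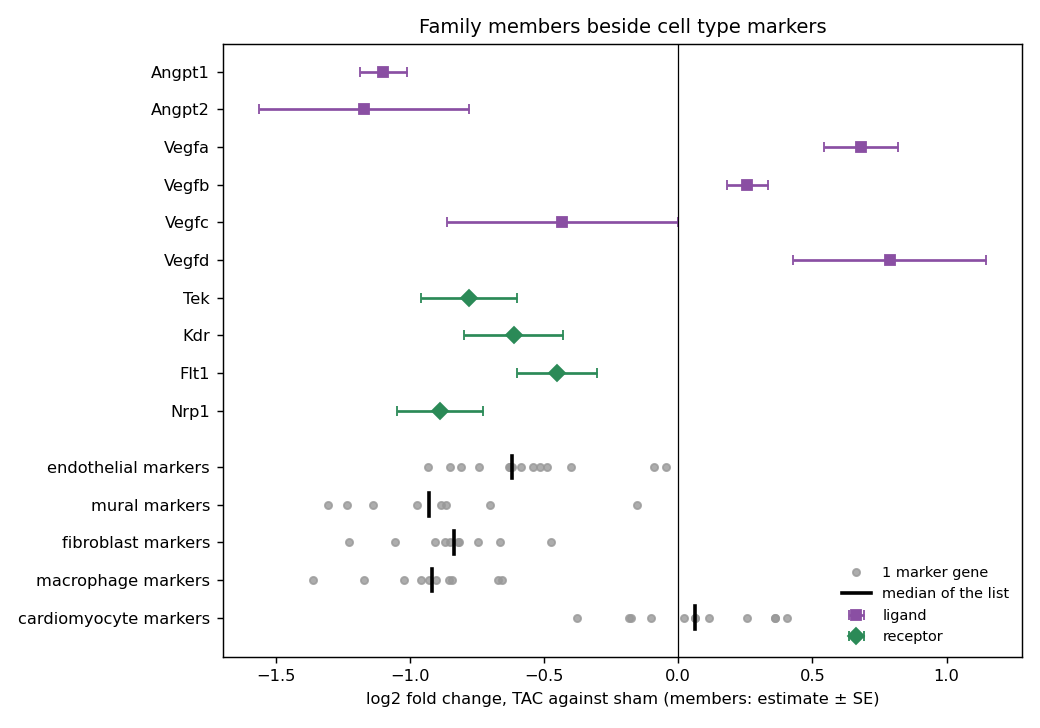
Log2 fold change of TAC against sham on the x axis for each of the 10 genes (squares for ligands, diamonds for receptors, bars for the standard error), above the single genes (grey points) and medians (black lines) of 5 lists of cell type markers. Angpt1 at -1.10 and the receptors lie below 0, as do the endothelial markers with a median of -0.62, while Vegfa at 0.68 lies above 0 and the cardiomyocyte markers spread around it.

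The promoters of Vegfa and of the 4 receptors are shown because Vegfa was higher in TAC and the receptors were lower in the same order of libraries. Each runs from 250 bases before to 50 bases after the start site (RefSeq, GRCm38.p6), 5′ to 3′ on the strand of the gene. Capitals mark exact matches on either strand to a GC box (GGGCGG) or to the hypoxia cores ACGTG and GCGTG. The ETS core CGGAAG, a motif of many endothelial promoters, was searched too. The Vegfa window is chr17:46032328-46032627 (reverse strand), that of Tek chr4:94739039-94739338 (forward), that of Kdr chr5:75978406-75978705 (reverse), that of Flt1 chr5:147725962-147726261 (reverse) and that of Nrp1 chr8:128358823-128359122 (forward).
Vegfa: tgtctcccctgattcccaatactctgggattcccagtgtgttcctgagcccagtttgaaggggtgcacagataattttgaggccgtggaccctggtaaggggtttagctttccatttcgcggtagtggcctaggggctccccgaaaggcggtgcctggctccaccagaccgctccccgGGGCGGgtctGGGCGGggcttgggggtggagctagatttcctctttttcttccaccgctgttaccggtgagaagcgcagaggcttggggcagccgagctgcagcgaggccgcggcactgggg
Tek: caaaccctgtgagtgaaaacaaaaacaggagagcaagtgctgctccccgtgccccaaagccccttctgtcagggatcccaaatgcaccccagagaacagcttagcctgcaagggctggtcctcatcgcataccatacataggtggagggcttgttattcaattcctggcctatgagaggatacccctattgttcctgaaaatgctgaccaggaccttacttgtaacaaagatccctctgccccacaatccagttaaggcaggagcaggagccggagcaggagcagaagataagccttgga
Kdr: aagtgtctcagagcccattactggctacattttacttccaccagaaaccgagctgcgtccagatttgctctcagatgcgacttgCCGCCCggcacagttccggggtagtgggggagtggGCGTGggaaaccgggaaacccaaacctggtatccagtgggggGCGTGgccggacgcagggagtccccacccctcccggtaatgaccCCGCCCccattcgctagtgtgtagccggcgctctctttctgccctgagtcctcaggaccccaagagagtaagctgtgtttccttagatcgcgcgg
Flt1: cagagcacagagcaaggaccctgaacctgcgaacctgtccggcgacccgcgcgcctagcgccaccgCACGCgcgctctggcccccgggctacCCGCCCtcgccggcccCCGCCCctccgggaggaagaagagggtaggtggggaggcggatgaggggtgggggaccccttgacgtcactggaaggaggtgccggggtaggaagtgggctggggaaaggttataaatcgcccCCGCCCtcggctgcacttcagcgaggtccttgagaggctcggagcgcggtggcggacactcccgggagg
Nrp1: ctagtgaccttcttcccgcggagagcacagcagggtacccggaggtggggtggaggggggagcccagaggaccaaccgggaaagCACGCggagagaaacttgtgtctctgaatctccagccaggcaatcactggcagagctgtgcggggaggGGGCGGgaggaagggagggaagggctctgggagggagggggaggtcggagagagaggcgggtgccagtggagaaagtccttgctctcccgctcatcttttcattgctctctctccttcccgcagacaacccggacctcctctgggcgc

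The Vegfa window held GC boxes 72 and 62 bases before the start site and neither hypoxia core. A further RefSeq start of Vegfa lies inside the locus of the gene. Its window, at chr17:46025114-46025413 and thus within transcribed sequence of the longer form, held 1 GC box, 1 ACGTG and 1 GCGTG. The Kdr window held 2 GC boxes and 2 GCGTG matches, that of Flt1 3 GC boxes and 1 GCGTG, and that of Nrp1 1 of each. The Tek window held none of the motifs. Vegfb had 4 GC boxes and 2 GCGTG, Vegfc 2 GC boxes, and Vegfd none. No CGGAAG was found in the 9 windows of the 8 genes that had an entry. Among 32851 promoter windows of this length, 35.66% held GGGCGG, 16.85% CGGAAG, 19.62% ACGTG and 32.39% GCGTG. A letter match is a description of the sequence and no binding site.

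The profiles of Kdr and Angpt1 over the 4 libraries were compared with those of all tested genes of at least 5 CPM on average, by the root mean square difference of centred log2 CPM. The nearest of 8485 genes to Kdr was Pecam1, the endothelial adhesion molecule, at a distance of 0.00944, followed by Fbln2, Cyyr1, Ctsc and Nav1 at up to 0.0259. Among its own family Kdr was nearest to Tek (0.0804), Flt1 (0.103) and Nrp1 (0.149), and 0.311 from Angpt1. Angpt1 was nearest to Nhsl1 at 0.0293, with C130074G19Rik, Scd4, Egflam and Rgcc at up to 0.0787. Its distance to the nearest member of the family, Nrp1, was 0.193. The gap between replicates on the log2 scale was 0.40 (sham) and 0.53 (TAC) for Kdr and 0.41 and 0.42 for Tek, against 0.03 and 0.06 for Angpt1. A profile over 4 libraries that fall into 2 groups is a coarse measure.

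**Figure D3:**
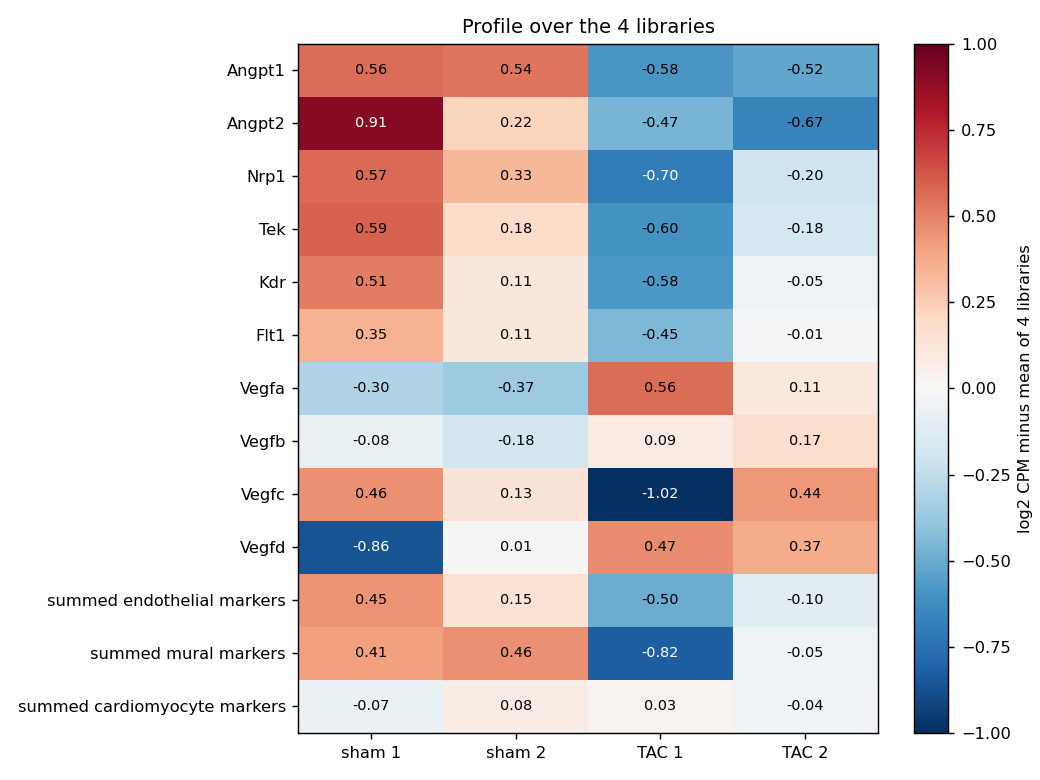
Centred log2 CPM of the 10 genes and of the summed endothelial, mural and cardiomyocyte markers in each library, red above and blue below the mean of the 4 libraries. The receptors and the endothelial sum are highest in sham 1 and lowest in TAC 1, an order that the fibroblast, lymphatic, macrophage and platelet sums (not drawn) also had at both ends, while the 2 values of Angpt1 within each group are nearly equal.

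Endothelial RNA itself was lower in the TAC libraries. The 15 endothelial markers summed to 537.0 and 435.6 CPM in the sham libraries, and to 278.8 CPM (TAC 1) and 366.4 CPM (TAC 2) after constriction. All 15 had a log2 fold change below 0, from -0.93 (Cldn5) to -0.09 (Sox18) and -0.05 (Robo4). Both TAC libraries lay below both sham libraries for 11, beside 30.3% of all genes tested. The groups overlapped for Emcn, Ecscr, Vwf and Robo4. The median was -0.62 (-0.37 without TAC 1), and 3 fell by edgeR at an adjusted p under 0.05. That count was 1 without TAC 1 or without sham 1, 8 without sham 2 and 9 without TAC 2. Cdh5, the cadherin of endothelial junctions, fell by 0.85 on the log2 scale (edgeR adjusted p = 0.0148), and Pecam1 stood at -0.62 ± 0.19 (edgeR adjusted p = 0.0940). Pecam1 was -0.37 without TAC 1 and -0.92 without TAC 2, and it was called without sham 2, without TAC 2 and with no filter on low counts. In bulk RNA, fewer cells of a type and less RNA per cell cannot be told apart. The receptors were therefore also set against the marker sum within each library. The log2 ratio of Kdr to the endothelial sum in FPKM was -2.92 and -3.05 in sham and -3.12 and -2.96 in TAC. That ratio overlapped between groups. For Flt1 the ratio was -4.18 and -4.14 in sham and -4.09 and -4.01 in TAC, slightly higher in TAC. For Tek it was -4.69 and -4.83 in sham and -4.97 and -4.93 in TAC, a difference of -0.19, and for Nrp1 -3.02 and -2.98 in sham and -3.39 and -3.26 in TAC, a difference of -0.33. The ratios of Tek and Nrp1 were lower in both TAC libraries than in both sham libraries. The part of endothelial RNA content in the receptor values was not tested.

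Summed markers of other vessel and stromal cells were lower in TAC as well, in the direction of Angpt1 and the receptors and opposite to Vegfa, and most of the single markers were not called. The 8 mural markers, of pericytes and smooth muscle that also make Angpt1, summed to 368.3 and 380.8 CPM in sham and 157.0 and 268.6 CPM in TAC, with 8 of 8 below 0, a median of -0.93 and 1 (Pdgfrb) called lower. Without TAC 1 the mural median was -0.54 with 0 called by edgeR, and without TAC 2 it was -1.63 with 6 called. The mural sum differed between replicates by 0.05 (sham) and 0.78 (TAC) on the log2 scale, where Angpt1 differed by 0.03 and 0.06. The 10 fibroblast markers summed to 264.7 and 189.3 CPM in sham and 109.1 and 148.2 CPM in TAC, with 10 of 10 below 0 and 3 called lower (Dcn, Lum and Dpt). These calls became 0 without TAC 1, 1 without sham 1, 6 without TAC 2 and 9 without sham 2. Macrophage markers summed to 137.4 and 70.5 CPM in sham and 37.6 and 70.2 CPM in TAC, with 10 of 10 below 0. None of the 10 macrophage markers was called by edgeR, 6 had an unadjusted p under 0.05 and 1 was called by DESeq2, while edgeR called 8 without sham 2 and 4 without TAC 2. The 5 markers of platelets, which carry Angpt1 and Vegfa, summed to 3.67 and 2.68 CPM in sham and 1.87 and 2.45 CPM in TAC. Pf4 was counted 74 and 28 times in sham and 17 and 21 times in TAC (log2 fold change -1.18 ± 0.50, edgeR adjusted p = 0.174), Gp1ba between 29 and 44 times in each library, Itga2b and Ppbp at most 7 times, and Gp9 in no library. Against the summed cardiomyocyte markers the log2 ratio of Angpt1 in FPKM was -11.98 and -12.12 in sham and -13.39 and -13.24 in TAC, a difference of -1.26. The part of mural, fibroblast, macrophage and platelet RNA in the Angpt1 value was not tested.

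Ratios of a ligand to its receptor within 1 library do not depend on how libraries are scaled, and they opened between groups for Vegfa. They can still vary with the mix of cells in a preparation, since the receptors are carried by endothelial cells. The part of endothelial RNA content in these ratios was not tested. In FPKM, Vegfa exceeded Kdr 3.10-fold in sham 1 and 4.05-fold in sham 2, against 12.4-fold in TAC 1 and 6.18-fold in TAC 2. The difference of the mean log2 ratios was 1.31, with TAC 1 far above TAC 2. Vegfa exceeded Flt1 7.40-fold and 8.62-fold in sham and 24.4-fold and 12.8-fold in TAC, a difference of 1.15 on the log2 scale. For Vegfb to Flt1 the difference was 0.72, from log2 ratios of 3.69 and 3.82 in sham to 4.66 and 4.30 in TAC. The TAC libraries lay above the sham libraries in all these ratios. The log2 ratio of Angpt1 to Tek was 0.43 and 0.81 in sham and 0.46 and 0.10 in TAC, so that ligand and receptor were lower together and the groups overlapped. Against the cardiomyocyte markers, the log2 ratio of Vegfa was -9.01 and -9.13 in sham and -8.36 (TAC 1) and -8.74 (TAC 2), a difference of 0.52 to which TAC 1 gave the larger part, and the ratio of Vegfb overlapped between groups.

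**Figure D4:**
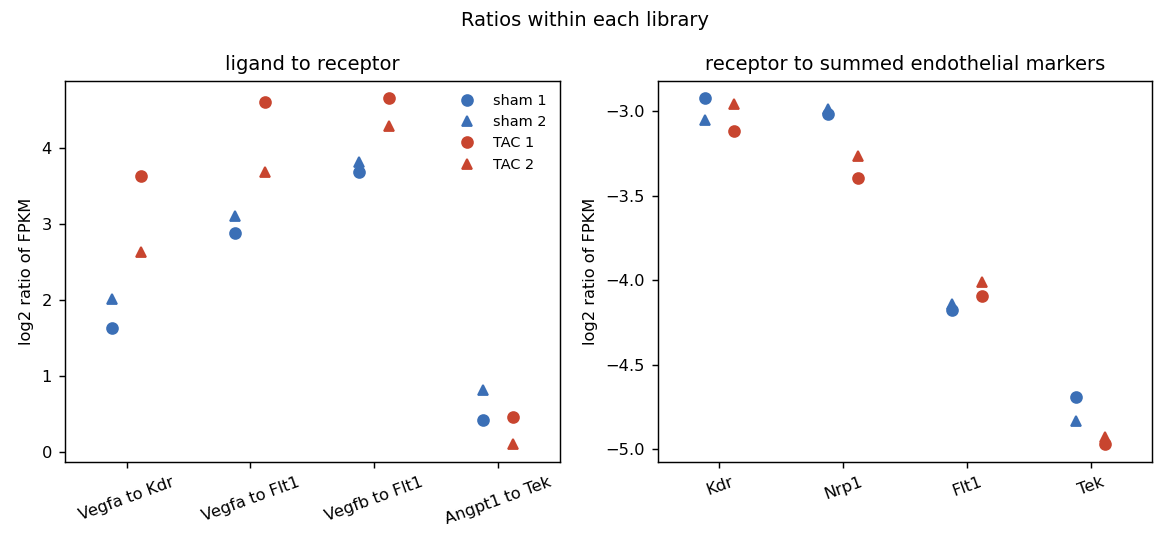
Log2 ratio of FPKM within each library (blue sham, red TAC, 1 point per library) for ligand to receptor on the left and for receptor to the summed endothelial markers on the right. The ratios of Vegfa to Kdr and to Flt1 lie higher in TAC, that of Angpt1 to Tek overlaps between groups, and on the right Nrp1 and Tek lie lower in TAC.

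The wider pathway was read from 56 genes in lists by role, of which 53 were tested. Of these, 4 rose, 2 fell and 47 did not pass, with a median log2 fold change of -0.08 beside -0.01 for all genes. Among all genes tested, 2.58% rose and 2.42% fell by the same test. An unadjusted p under 0.05 was held by 23 of the 53, against 27.5% of all genes, and DESeq2 called 8. The 4 other receptors and ligands that were tested all had a log2 fold change below 0. Tie1, the partner of Tek, was at 49.5 and 42.1 CPM in sham and 21.4 and 34.0 CPM in TAC, which gave -0.73 ± 0.20 on the log2 scale (edgeR adjusted p = 0.0734, between 0.00268 and 0.154 over the alternatives). Flt4, the lymphatic receptor of Vegfc and Vegfd, stood at -0.41 ± 0.17 (edgeR adjusted p = 0.172). Nrp2, the second neuropilin, had -0.48 ± 0.18 (edgeR adjusted p = 0.145). Pgf, a ligand of Flt1, had -1.05 ± 0.40 (edgeR adjusted p = 0.150). These sizes varied with the libraries: Tie1 ranged from -0.43 (without TAC 1) to -1.10 (without TAC 2), Flt4 was -0.20 without sham 1, Pgf was -0.71 without TAC 1, and Nrp2 was -0.29 without TAC 1, -0.23 without sham 1 and -0.69 without sham 2. None of these 4 was called in the edgeR fit used throughout. Tie1 was called without TAC 2, without sham 2, with no filter on low counts and with the replicate block, and Nrp2 without sham 2 and with no filter. All 4 had an unadjusted p under 0.05, and 1 was called by DESeq2. Angpt4 was at 0.158 CPM at most and was not tested.

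Among genes that act on the ligands, Ccbe1, a cofactor for the maturation of Vegfc, fell from 8.12 and 12.8 CPM to 4.59 and 4.62 CPM, or -1.18 ± 0.23 on the log2 scale (edgeR adjusted p = 0.0354). It was not called without sham 2 (adjusted p = 0.0559) or without TAC 1 (adjusted p = 0.115), and its adjusted p lay between 0.000484 and 0.115 over the alternatives. Among genes that act with the receptors, Shb, an adaptor that docks on Kdr, rose from 11.6 and 9.73 CPM to 32.6 and 26.1 CPM, or 1.46 ± 0.15 on the log2 scale (edgeR adjusted p = 0.00490), and was called in all 13 alternatives. Gab1, a docking protein for Kdr signals, fell by 0.37 on the log2 scale (edgeR adjusted p = 0.0496) but was called in only 4 of the 13 alternatives. Leaving out 1 library gave values of -0.31 to -0.42. Its call was also lost with the replicate block (edgeR adjusted p = 0.0803), under total-count scaling (edgeR adjusted p = 0.0543) and with limma. Plxna2, a semaphorin receptor that pairs with neuropilins, rose by 0.48 (edgeR adjusted p = 0.0466) and was not called without sham 1 (0.39), TAC 1 (0.58) or TAC 2 (0.37), nor under total-count scaling (adjusted p = 0.258, in a range of 0.00408 to 0.388 over the alternatives). Ptprb, the endothelial phosphatase that dampens Tek, stood at -0.75 ± 0.19 (edgeR adjusted p = 0.0655).

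Of 5 endothelial targets of Kdr signalling, 1 passed. Rcan1, a regulator of calcineurin that cardiomyocytes also express, rose from 92.9 and 61.1 CPM to 398.1 and 308.1 CPM, or 2.20 ± 0.20 on the log2 scale (edgeR adjusted p = 0.00445). The other 4 were not called. Dll4 and Apln had log2 fold changes of -0.74 ± 0.24 and -0.22 ± 0.17 (edgeR adjusted p = 0.0997 and 0.431), and the rarer Egr3 and Esm1 -0.83 ± 0.51 and 0.12 ± 0.54 (edgeR adjusted p = 0.331 and 0.907). Upstream of Vegfa, none of 9 genes of oxygen sensing was called by edgeR, 3 had an unadjusted p under 0.05 and 1 was called by DESeq2. With edgeR, 1 was called with no filter on low counts, without sham 2 or without TAC 2. Hif1a, the oxygen-sensitive transcription factor, had 0.10 ± 0.07 (edgeR adjusted p = 0.437), and Ppargc1a, a coactivator that can raise Vegfa, had 0.40 ± 0.10 (edgeR adjusted p = 0.0553). Of 9 hypoxia targets tested, P4ha1, a collagen hydroxylase, rose by 0.53 on the log2 scale (edgeR adjusted p = 0.0148), and lost its call without TAC 1 (adjusted p = 0.0523) and under total-count scaling (adjusted p = 0.143), within a range of 0.000217 to 0.232 over the alternatives. The other 8 were not called. Of the 9, 5 were above 0 and 4 below 0, with a median of 0.15 that turned to -0.03 under total-count scaling and to -0.04 with limma on FPKM, and 4 had an unadjusted p under 0.05. The uncalled ones included Bnip3 at 0.28 ± 0.10 and Ldha at 0.20 ± 0.07 (edgeR adjusted p = 0.134 and 0.136), and Ndrg1 at -0.41 ± 0.13 and Adm at -0.43 ± 0.21 (edgeR adjusted p = 0.0960 and 0.220).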

How the data were processed

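RNA-seq was performed by the authors on cardiomyocytes of 2 sham and 2 TAC mice. Per library the authors deposited expected counts (estimated counts per gene, 1432 to 1519 of them not whole) and FPKM values. The submitters' processing notes name Bowtie2 2.2.8, StringTie 1.3.1 and mm10, with no role for any of them, and no source used here states the annotation or strand setting. Expected counts were rounded, filtered with filterByExpr, scaled by TMM (0.868 to 1.098) and fitted in R 4.3.3 with edgeR 4.0.16 (glmQLFit and glmQLFTest, no block). P-values were adjusted over 12499 genes. Each rests on 2 hearts per group and on a dispersion moderated over all genes. Neither the p-value nor the standard error is a direct measure of the spread between hearts for that gene. A standard error is the log2 fold change divided by the square root of F. The common biological coefficient of variation was 10.5%. An exact permutation test of 2 against 2 cannot go below p = 0.333. The fit was also run on simulated counts with the same dispersion for all genes and both groups. That setting lacks the larger difference between the TAC libraries, so nothing is read from it. Alternatives were DESeq2 1.42.0, limma 3.58.1 on log2(FPKM + 0.1) and log2(FPKM + 1), other scalings and filters, a replicate block, and leaving out each library. Loci were taken from GENCODE M21.

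The genes of the family and all lists were chosen with earlier results of these data known. Named besides the family were all other ligands and receptors, called genes of each pathway list (at most 6), Pecam1, Cdh5, Myh6 and Tnnt2, and the 5 genes nearest to Angpt1 and to Kdr. Myh6 and Tnnt2 had log2 fold changes of -0.18 and 0.06 (edgeR adjusted p = 0.420 and 0.717). Other markers and pathway genes named in the text were picked after their values were seen. The 5 lymphatic markers summed to between 69.7 and 118.9 CPM, mostly Prox1, which cardiomyocytes also express. None of the 5 was called by edgeR, 1 had an unadjusted p under 0.05 and 1 was called by DESeq2.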

Additional observations from a re-analysis of the deposited data

How the results depend on the processing

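The count of genes called was 625 and became 887 with DESeq2, 1676 with no filter and 1817 at an adjusted p under 0.1. With limma it was 195 on log2(FPKM + 0.1) and 214 on log2(FPKM + 1). Leaving out 1 library gave 159 (without TAC 1) to 1045 (without TAC 2). For the other pathway genes, 6 calls became 14 with no filter, 2 and 2 with limma, 13 at an adjusted p under 0.1, and 2 (without TAC 1) to 9 (without sham 2) when a library was left out. Of the 10 family genes, 3 were called, and 5 with DESeq2, 6 with no filter, 1 and 1 with limma, and 1 (without TAC 1) to 6 (without sham 2 or TAC 2) when a library was left out. Since this comparison chose the family, nothing is read from these counts. With total-count scaling Tek was called in place of Vegfa.

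Directions of the 10 genes held under all 13 alternatives, except that Vegfc turned positive without TAC 1. The study's methods mention pairs of sham and TAC mice without saying what a pair shared or tying the replicate numbers to pairs, and same-numbered libraries deviated with a correlation of -0.24, so the numbers were not used as a block. With the replicate block 572 genes and 7 pathway genes were called, and 4 family genes, Tek being added. The crossed pairing, chosen after seeing the data, gave 2114 called genes. The causes of these differences were not tested. Low counts limit Angpt2, Vegfc and Vegfd.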

Other observations

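Besides Vegfa, Nrp1 binds class 3 semaphorins, guidance cues that can oppose vessel growth. Sema3c held 13.1 and 13.6 CPM in sham and 14.5 and 16.4 CPM in TAC, which gave 0.21 ± 0.12 on the log2 scale, TAC against sham (edgeR adjusted p = 0.275). Sema3f held 7.68 and 5.39 CPM against 5.92 and 6.30 CPM (edgeR adjusted p = 0.779), and Sema3a and Sema3d stayed at 1.36 CPM or below in every library. Furin, a protease that cleaves the precursors of Vegfc and Vegfd, held 82.5 and 76.3 CPM in sham and 86.5 and 85.9 CPM in TAC (edgeR adjusted p = 0.341).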
